A study of Mus musculus with 16 samples.

Results

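The BMP response genes are the targets that cells switch on when bone morphogenetic protein (BMP) signals reach them: Id1, Id2, Id3, Id4, Smad6, Smad7, Bambi, Msx1 and Msx2. They were measured in sorted cells of the mouse colon. All probe sets whose only gene symbol in the platform's annotation was one of these 9 genes were taken, which gave 15 probe sets of 45141, and 9 genes of 17097 named on the array. The colons came from 4 C57BL/6 mice of the Gli1CreERT2-ZsGreen genotype, each injected with 1 mg of tamoxifen a day for 5 days and killed on day 6. Another label gives the time as 5 days after tamoxifen, and neither age nor sex is given. Cells negative for Epcam, CD45 and CD31 and positive for gp38 (podoplanin) were sorted from each mouse by Sca1 and by the ZsGreen reporter. This gave 3 Sca1+ populations (ZsGreen-high, ZsGreen-dim and ZsGreen-negative) and a Sca1- population, which was ZsGreen-negative, with 1 array per mouse in each, so n = 4. All 4 populations carried the same alleles and had the same tamoxifen, and no group without them was compared. Gli1 is a target gene of Hedgehog signalling and here drives a Cre recombinase that tamoxifen activates. The labels do not say whether ZsGreen marks current Gli1 expression or its history.

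BMP ligands bind paired type I and type II serine/threonine kinase receptors. The receptors phosphorylate SMAD1, SMAD5 and SMAD9, which join SMAD4 and enter the nucleus. Among their direct targets, the Id genes encode helix-loop-helix proteins without a DNA-binding region that hold E proteins away from DNA. Smad6, Smad7 and Bambi encode inhibitors that feed back on the receptors, and Msx1 and Msx2 encode homeobox factors. In the colon, mesenchymal cells around the crypt are known sources both of BMP ligands and of secreted BMP antagonists.

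The stretches before the start sites of 4 genes are shown. They were picked because 3 genes (Id3, Id4 and Smad6) had a probe set called higher in ZsGreen-high cells. Id2, of the same family as Id3 and Id4, did not pass the test. Each stretch is the 250 bases before the RefSeq start on GRCm38.p6, written 5′ to 3′ on the gene's strand. Capitals mark matches to 1 of 4 motifs searched on both strands: GGCGCC (a GC-rich site of BMP SMADs), CAGAC (the SMAD4 core), GNCGNC followed by 5 further bases and GTCT (a composite SMAD site) and GACCACCCA (a Gli site). The first motif is also a match to the opening GNCGNC of the composite one, and GTCT is shared by the composite motif and the reverse of CAGAC.
Id3: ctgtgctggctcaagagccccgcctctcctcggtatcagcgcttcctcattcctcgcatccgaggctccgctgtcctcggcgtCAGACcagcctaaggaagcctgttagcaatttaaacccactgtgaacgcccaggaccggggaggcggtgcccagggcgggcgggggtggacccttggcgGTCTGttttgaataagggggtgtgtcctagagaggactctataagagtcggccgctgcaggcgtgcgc
Id4: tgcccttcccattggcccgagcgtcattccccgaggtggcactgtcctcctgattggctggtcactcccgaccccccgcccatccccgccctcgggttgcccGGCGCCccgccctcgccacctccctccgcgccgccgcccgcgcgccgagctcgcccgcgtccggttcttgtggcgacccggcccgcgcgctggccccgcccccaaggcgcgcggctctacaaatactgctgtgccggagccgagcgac
Smad6: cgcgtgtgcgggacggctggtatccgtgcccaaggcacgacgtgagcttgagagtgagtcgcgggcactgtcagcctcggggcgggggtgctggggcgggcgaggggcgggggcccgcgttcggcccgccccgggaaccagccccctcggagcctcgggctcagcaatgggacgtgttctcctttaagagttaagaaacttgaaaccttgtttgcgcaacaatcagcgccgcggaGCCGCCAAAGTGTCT
Id2: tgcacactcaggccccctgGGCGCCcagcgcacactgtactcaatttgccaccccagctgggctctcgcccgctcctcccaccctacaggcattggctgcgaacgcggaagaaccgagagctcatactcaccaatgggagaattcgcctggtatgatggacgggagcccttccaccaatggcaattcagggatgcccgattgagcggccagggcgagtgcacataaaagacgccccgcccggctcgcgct
These windows lie at chr4:136143572-136143821 (plus strand) for Id3, chr13:48260866-48261115 (plus) for Id4, chr9:64022060-64022309 (minus) for Smad6 and chr12:25096093-25096342 (minus) for Id2. Id3 held 2 CAGAC matches, which began 167 and 68 bases before the start. Id4 held GGCGCC at 148 bases before the start and Id2 held it at 231. Smad6 held the composite motif at 15 bases before the start. Of 32851 RefSeq windows of this length, 42.2% held CAGAC, 9.59% GGCGCC, 0.511% the composite motif and 0.225% the Gli motif. The Gli motif was in 0 of the 6 windows found for the 9 genes. The windows of Msx1 and Msx2, which are not printed, held 0 matches to any of the 4 motifs. GC content was 62.8% for Id3, 75.6% for Id4, 66.8% for Smad6 and 62.8% for Id2, against a median of 52.4% over all windows. A match is a description of the letters, not of binding.

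Signals are whole numbers on a linear scale, recovered from the deposited scores, and differences are in log2 units. The highest of 23 nonspecific control probe sets on an array (234 to 488) is called background. Mean Gli1 fell in the order of the gates, with 2611 ± 321 (SD, n = 4) in ZsGreen-high, 2323 ± 322 in ZsGreen-dim, 1104 ± 299 in Sca1+ ZsGreen-negative and 920.5 ± 318 in Sca1- ZsGreen-negative cells. The ZsGreen-high (2255 to 2978) and ZsGreen-dim arrays (1961 to 2705) overlapped, and both ZsGreen-negative populations were above background on all 4 arrays. Fibroblast genes were high in all populations (mean log2 signal of 10 genes 14.52, 14.40, 13.98 and 13.58 in the same order). Podoplanin (Pdpn), which the sort selected for, averaged 7494, 6523, 3833 and 2196. Epcam, which the sort selected against, was also well above background and averaged 3472, 10281, 17885 and 17339. Over 17 genes of colon epithelium the mean log2 signal was 11.56 (array range 10.76 to 12.71) in ZsGreen-high and 13.93 (13.52 to 14.21) in Sca1+ ZsGreen-negative cells, and all 17 were lower there in ZsGreen-high cells, with 0 at background. In Sca1- cells the epithelial mean was 13.88, above the fibroblast mean of 13.58. The endothelial marker Pecam1, also selected against, was 969.3 in ZsGreen-high, 2180 in ZsGreen-dim, 4064 in Sca1+ ZsGreen-negative and 4149 in the Sca1- population. Ptprc, which encodes CD45, was 467.5, 487, 634.8 and 899.8 in the same order. Of 16 endothelial genes, 12 were lower and 1 was higher in ZsGreen-high than in Sca1+ ZsGreen-negative cells, and 0 were at background. Of 10 smooth muscle genes, 8 were higher there. The ratio of 3′ to 5′ Actb control signals was 1.24 ± 0.03 in ZsGreen-high cells and 1.15, 1.11 and 1.11 in the others, and its part in the results was not tested. By Xist, the 4 arrays of mouse 2 did not match one another: 6 arrays were low (139 to 198), namely all 4 of mouse 1 and the ZsGreen-high and ZsGreen-dim arrays of mouse 2, and 10 were high (22097 to 33048). The label pairs these arrays all the same, so every count over mice and every fit with the mouse as a block rests, for mouse 2, on a pairing that Xist goes against. In sorted bulk samples, fewer cells of a type and less RNA per cell cannot be told apart.

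ZsGreen-high against Sca1+ ZsGreen-negative cells asks how the genes differ with the reporter among Sca1+ cells. In ZsGreen-high cells Id4 (on its 2 dimmer probe sets, not the brightest), Id3 and Smad6 were higher and Id1 and Smad7 were lower. Id2 and Bambi did not pass the test, and Msx1 and Msx2 were near background. By limma with Benjamini-Hochberg adjustment over 45037 probe sets at a threshold of 0.05, 6 of the 15 probe sets passed, 4 higher and 2 lower, from 5 genes. Of these, Id3 and Smad6 lay close to the threshold (limma adjusted p = 0.0455 and 0.0473). Smad7 did not pass when arrays were scaled to hybridization controls. Over all probe sets 26.2% passed, so ZsGreen-high cells differed from ZsGreen-negative cells across a large part of the array. The members' median difference was 0.08, against 0.01 over all probe sets. Against Sca1- ZsGreen-negative cells 7 of 15 passed (5 higher, 2 lower) where 31.2% of all did, the added gene being Bambi. Both comparisons use the same ZsGreen-high arrays.

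These counts depended on the scale between arrays, and whether they depended on the epithelial signal could not be decided. Scaled to the hybridization controls in place of the deposited scale, the median of all probe sets rose by 0.39 in ZsGreen-high against Sca1+ ZsGreen-negative cells, and 93.8% of calls were higher in place of 58.1%. On that scale 59.5% of all probe sets passed. Of the 15 member probe sets 14 did, 13 higher and 1 lower, with a median of 0.46, and they included all 4 of Msx1 and Msx2, which lay near background. The rise in the members' count therefore accompanied a rise over the whole array. The split of calls over all probe sets moved likewise against Sca1- cells (92.7% higher in place of 55.0%). With the mean of the epithelial list as a covariate 0 of 15 passed, as did 0.00222% of all probe sets. The list's array values do not overlap between ZsGreen-high and Sca1+ ZsGreen-negative cells, so list and population cannot be told apart by this fit.

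**Figure D1:**
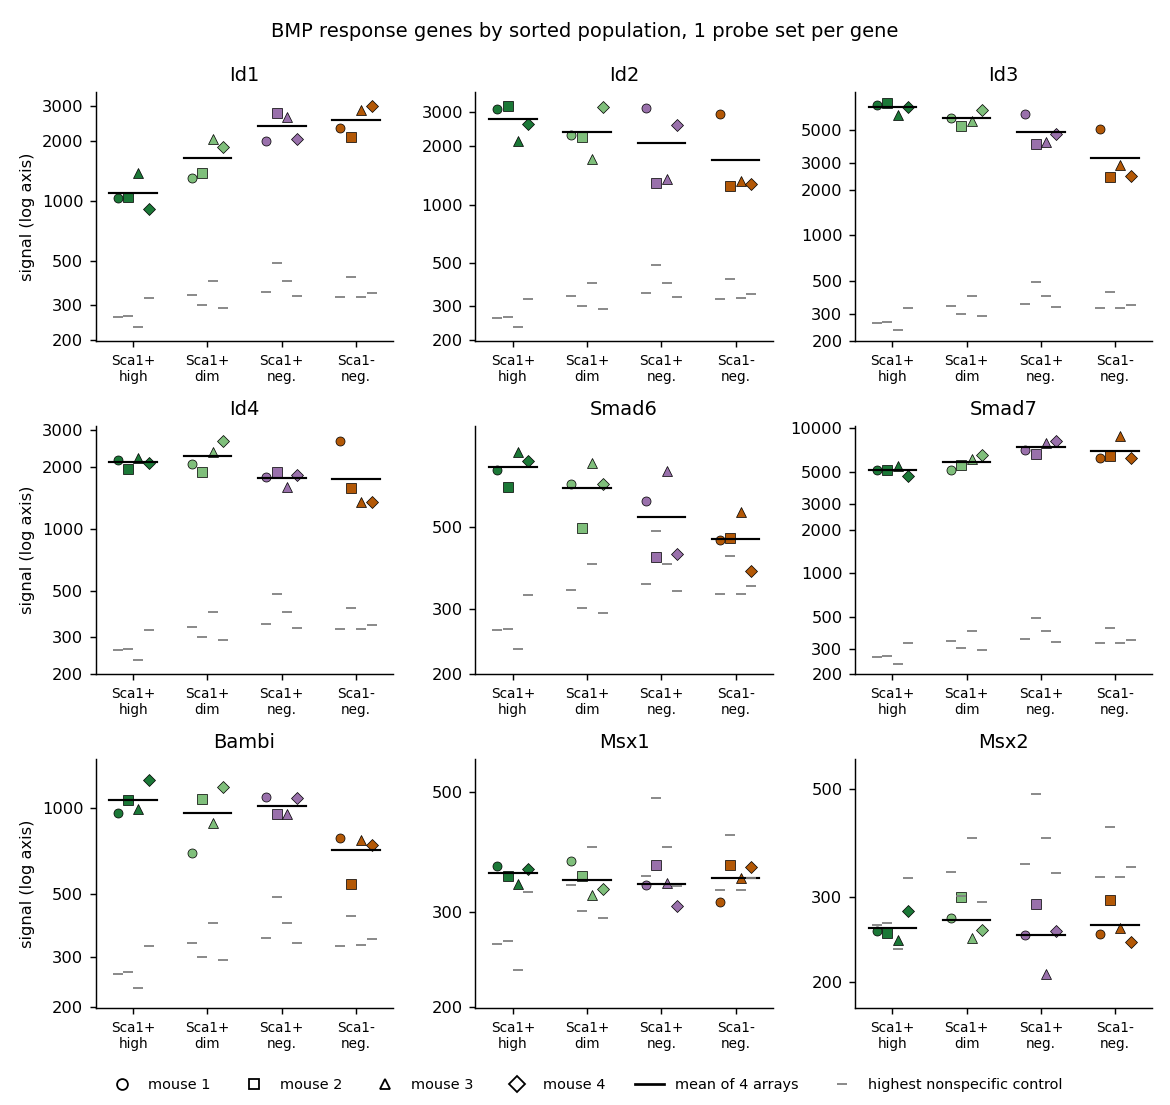
Signal (log axis) of the brightest probe set of each of the 9 genes in the 4 sorted populations, with 1 symbol per mouse, a bar at the mean of 4 arrays and a grey dash at each array's highest nonspecific control. Id1 runs from 919 in ZsGreen-high to 3000 in Sca1- cells while Id3 runs the other way, and Msx2 lies at the control level.

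Id1 was the member with the clearest fall. Its signals were 1036, 1053, 1384 and 919 in the ZsGreen-high arrays of mice 1 to 4 and 1316, 1396, 2060 and 1865 in the ZsGreen-dim arrays. They were 2018, 2786, 2654 and 2053 in Sca1+ ZsGreen-negative and 2325, 2106, 2870 and 3000 in Sca1- ZsGreen-negative cells. The ZsGreen-high arrays lay below every ZsGreen-negative array, and within each mouse the order was ZsGreen-high, ZsGreen-dim, then Sca1+ ZsGreen-negative. Id1 fell by 1.12 ± 0.17 (SE) on the log2 scale in ZsGreen-high against Sca1+ ZsGreen-negative cells (2.17-fold, limma adjusted p = 0.00053, lower in 4 of 4 mice). It fell by 1.23 ± 0.17 against Sca1- cells (limma adjusted p = 0.000113). Both calls held in 20 of 20 fits that left out a mouse or an array. ZsGreen-dim cells stood between: Id1 was -0.53 ± 0.17 against Sca1+ ZsGreen-negative cells (adjusted p = 0.125) and 0.59 above ZsGreen-high cells (adjusted p = 0.119), both without passing. With the mouse as a block both passed by limma, at adjusted p = 0.0285 and 0.028. With mouse 2 left out of that fit the first was lost (adjusted p = 0.168) and the second passed (limma adjusted p = 0.0283). The 2 ZsGreen-negative populations differed by -0.12 ± 0.17 in Id1, less than the spread between arrays. Among the ZsGreen-high arrays the one with the highest Id1, 1384 in mouse 3, also had the highest Epcam, 6869. The arrays of mice 1, 2 and 4 ran the other way, with Epcam of 2010, 1698 and 3312 beside Id1 of 1036, 1053 and 919. Among Sca1+ ZsGreen-negative arrays the highest Epcam, 20560 in mouse 4, went with Id1 of 2053, and the highest Id1, 2786 in mouse 2, with Epcam of 18063. The part of epithelial or endothelial RNA in the fall of Id1 was not tested. In the covariate fit, which cannot tell the epithelial list and the population apart, the Id1 difference was -0.40 (limma adjusted p = 0.76).

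Id3, another member of the Id family, went the other way. Its signals were 7250, 7530, 6232 and 7077 in ZsGreen-high and 6026, 5297, 5727 and 6780 in ZsGreen-dim arrays. They were 6347, 4023, 4140 and 4698 in Sca1+ ZsGreen-negative and 5077, 2429, 2927 and 2481 in Sca1- cells. ZsGreen-high lay above Sca1+ ZsGreen-negative in each mouse, but the ranges met, since the ZsGreen-negative array of mouse 1 (6347) exceeded the ZsGreen-high array of mouse 3 (6232). The rise over Sca1+ ZsGreen-negative cells was 0.57 ± 0.20 (1.48-fold, limma adjusted p = 0.0455). It passed in 6 of 20 fits that left out a mouse or an array, so it stands close to the threshold, and with the epithelial covariate the difference was -0.066. Against Sca1- cells Id3 rose by 1.19 ± 0.20 in ZsGreen-high (2.28-fold, limma adjusted p = 0.000387) and by 0.95 ± 0.20 in ZsGreen-dim cells (limma adjusted p = 0.00616). In both of these the ranges were apart. Between the 2 ZsGreen-negative populations Id3 was 0.62 ± 0.20 higher in Sca1+ cells in 4 of 4 mice without passing (adjusted p = 0.152). Without mouse 1, without its Sca1- array alone, with the Xist group as a block (limma adjusted p = 0.0469) or among the 10 Xist-high arrays (limma adjusted p = 0.0059), that difference passed.

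Id2 varied widely between the arrays of a population. On its brightest probe set the signals were 3125, 3225, 2132 and 2605 in ZsGreen-high and 2281, 2247, 1729 and 3207 in ZsGreen-dim arrays. They were 3134, 1290, 1353 and 2584 in Sca1+ ZsGreen-negative and 2946, 1256, 1329 and 1282 in Sca1- cells. Mouse 1 was among the 2 highest in every population, and all ranges overlapped. The difference of ZsGreen-high from Sca1+ ZsGreen-negative cells was 0.50 ± 0.32 (adjusted p = 0.286). From Sca1- cells it was 0.79 ± 0.32 (adjusted p = 0.0732), and this passed with the mouse as a block (limma adjusted p = 0.0212) but not when mouse 2 was left out of that fit (adjusted p = 0.121). It also passed when mouse 1, or its Sca1- array alone, was left out. The other Id2 probe sets ran from 598 to 809 and from 322 to 501 over the 16 arrays, and neither passed in any of the 6 comparisons.

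Id4 had 3 probe sets that did not give the same answer. On 1423259_PM_at the signals were 1367, 1085, 1259 and 1192 in ZsGreen-high and 655, 786, 537 and 1130 in ZsGreen-dim arrays. There they were 736, 476, 373 and 755 in Sca1+ ZsGreen-negative and 945, 382, 399 and 349 in Sca1- cells. Every ZsGreen-high array was above every ZsGreen-negative one. The probe set was above background on 2 of 4 Sca1+ ZsGreen-negative arrays, on 3 of 4 Sca1- arrays and on all others, so the differences below rest in part on signals at background. The rise was 1.12 ± 0.31 over Sca1+ ZsGreen-negative cells (2.18-fold, limma adjusted p = 0.014) and 1.37 ± 0.31 over Sca1- cells (limma adjusted p = 0.0032), each in 4 of 4 mice. The first was lost without mouse 2, without mouse 3 or when the Sca1+ ZsGreen-negative array of that mouse was left out, and was kept in 17 of 20 such fits. The dimmest probe set, 1450928_PM_at, gave 535, 499, 491 and 419 in ZsGreen-high and 259, 362, 255 and 429 in ZsGreen-dim arrays. It gave 297, 212, 183 and 267 in Sca1+ ZsGreen-negative and 278, 189, 193 and 203 in Sca1- cells, all 8 at array background. Set against the control signal, Id4 on this probe set was at least 1.25-fold higher in ZsGreen-high than in Sca1+ ZsGreen-negative cells. It was at least 1.37-fold higher than in Sca1- cells. These bounds were not tested. The limma fit took the signals as they stand, background included, and passed in both comparisons (limma adjusted p = 0.00119 and 0.000249). Both calls held in 20 of 20 leave-one-out fits.

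The brightest Id4 probe set, 1423260_PM_at, stands for the gene where 1 probe set per gene is used. Its signals were 2162, 1953, 2187 and 2083 in ZsGreen-high and 2061, 1891, 2349 and 2668 in ZsGreen-dim arrays. They were 1776, 1883, 1590 and 1826 in Sca1+ ZsGreen-negative and 2661, 1583, 1348 and 1351 in Sca1- cells. ZsGreen-high lay above Sca1+ ZsGreen-negative on all arrays, but by 0.25 ± 0.17 only, and the difference did not pass (adjusted p = 0.335). So Id4 was called on 2 of its 3 probe sets, and not on the brightest. Between ZsGreen-high and ZsGreen-dim cells the 3 probe sets differed by 0.71, 0.61 and -0.09 in the order given here, and 0 passed.

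**Figure D2:**
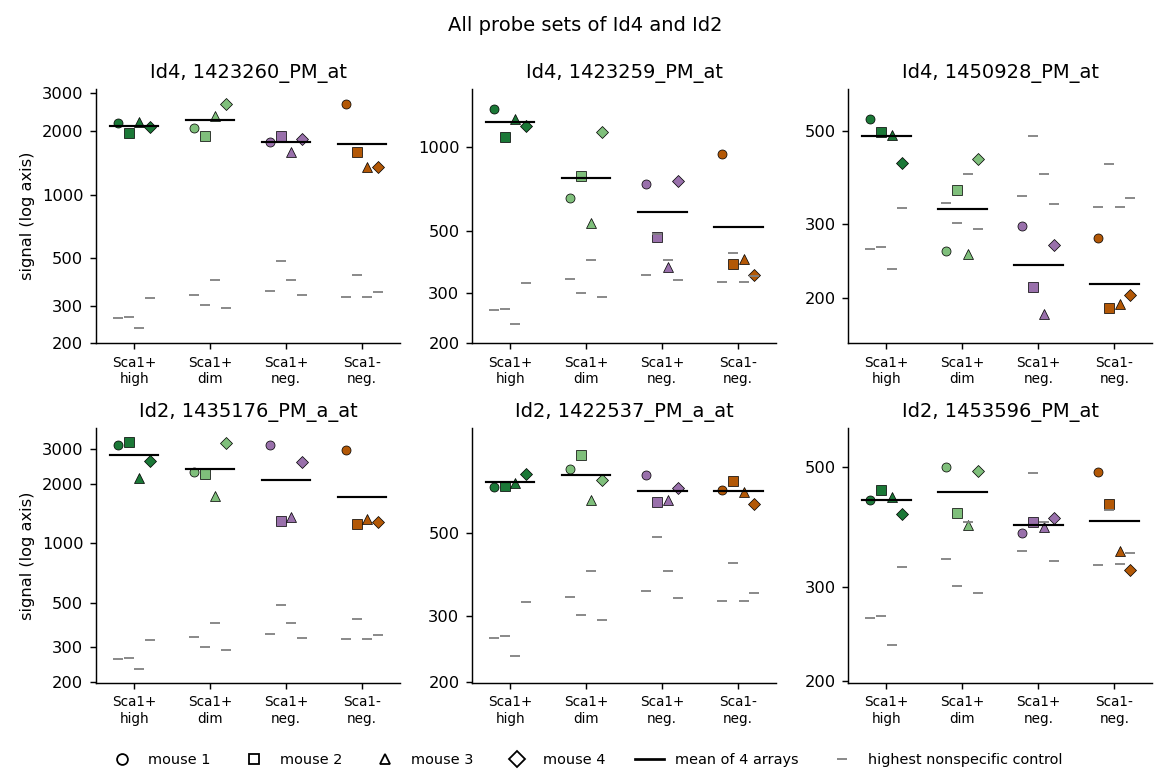
Signal (log axis) of the 3 probe sets of Id4 and the 3 of Id2 by sorted population, with 1 symbol per mouse, bars at the mean of 4 arrays and grey dashes at each array's highest nonspecific control. The 2 dimmer Id4 probe sets are higher in every ZsGreen-high array than in any ZsGreen-negative one, while the brightest one spans 1348 to 2668 with overlapping Sca1- cells.

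The inhibitory SMADs moved in opposite directions. SMAD6 acts mainly on BMP type I receptors, whereas SMAD7 blocks both BMP and TGF-beta receptors. Smad6 signals were 716, 643, 799 and 757 in ZsGreen-high and 655, 498, 746 and 654 in ZsGreen-dim arrays. They were 589, 414, 709 and 423 in Sca1+ ZsGreen-negative and 461, 466, 548 and 380 in Sca1- cells. ZsGreen-high was the higher in each mouse, with overlap in the first pair of populations and none against Sca1- cells. Smad6 rose by 0.48 ± 0.17 over Sca1+ ZsGreen-negative cells (1.40-fold, limma adjusted p = 0.0473) and by 0.66 ± 0.17 over Sca1- cells (limma adjusted p = 0.00764). The first call held in 7 of 20 leave-one-out fits and not among the 10 Xist-high arrays (adjusted p = 0.0761), and in those fits the second was lost only without mouse 4. ZsGreen-dim exceeded Sca1- cells by 0.46 ± 0.17 without passing (adjusted p = 0.096), and passed with the mouse as a block (limma adjusted p = 0.0146), also without mouse 2 (limma adjusted p = 0.0161).

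Smad7 signals were 5185, 5183, 5472 and 4691 in ZsGreen-high and 5148, 5619, 6124 and 6511 in ZsGreen-dim arrays. They were 7106, 6615, 7989 and 8246 in Sca1+ ZsGreen-negative and 6288, 6424, 8863 and 6286 in Sca1- cells. All ZsGreen-high and all ZsGreen-dim arrays were below all Sca1+ ZsGreen-negative ones. Smad7 fell by 0.54 ± 0.11 in ZsGreen-high against Sca1+ ZsGreen-negative cells (1.46-fold, limma adjusted p = 0.00308) and by 0.43 ± 0.11 against Sca1- cells (limma adjusted p = 0.00974). Both held in 20 of 20 leave-one-out fits. They did not hold when arrays were scaled to the hybridization controls, where the differences were -0.16 (adjusted p = 0.359) and -0.03 (adjusted p = 0.876). In ZsGreen-dim cells Smad7 was -0.36 ± 0.11 from Sca1+ ZsGreen-negative cells (adjusted p = 0.119), and this passed with the mouse as a block (limma adjusted p = 0.0349) but not when mouse 2 was left out of that fit (adjusted p = 0.113).

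Bambi, a pseudoreceptor that lacks the kinase domain, was lowest in the Sca1- cells. Its signals were 954, 1065, 988 and 1252 in ZsGreen-high and 696, 1069, 887 and 1182 in ZsGreen-dim arrays. They were 1089, 953, 948 and 1078 in Sca1+ ZsGreen-negative and 783, 541, 768 and 740 in Sca1- cells. The Sca1- arrays lay below both the ZsGreen-high and the Sca1+ ZsGreen-negative ones, with no overlap. Bambi rose by 0.60 ± 0.15 in ZsGreen-high against Sca1- cells (1.51-fold, limma adjusted p = 0.00791, 4 of 4 mice), a call lost without mouse 2. Among Sca1+ cells ZsGreen-high and ZsGreen-negative differed by 0.06 ± 0.15 (adjusted p = 0.824). Sca1+ ZsGreen-negative cells exceeded Sca1- cells by 0.53 ± 0.15 in 4 of 4 mice, which did not pass (adjusted p = 0.0988). Genes of other cell types also stood apart in the Sca1- population. The mean log2 signal of 6 genes of interstitial cells of Cajal was 12.08 there (array range 11.83 to 12.31), against 10.15 (10.02 to 10.32) in ZsGreen-high and 10.90 (10.71 to 11.06) in Sca1+ ZsGreen-negative cells. Of these, 5 were lower in ZsGreen-high and 4 in Sca1+ ZsGreen-negative than in Sca1- cells, and 0 were at background in Sca1- cells. Over 7 glial and neuronal genes the mean was 9.40 (9.23 to 9.77) in Sca1-, 8.64 (8.60 to 8.75) in ZsGreen-high and 8.77 (8.66 to 8.91) in Sca1+ ZsGreen-negative cells, with Elavl4 and Tubb3 at background in the Sca1- population. Over 7 pericyte genes it was 10.86 (10.59 to 11.39), 10.46 (10.44 to 10.49) and 10.23 (9.93 to 10.46) in the same order, with 0 at background. The part of these cells in any difference from the Sca1- population, in Bambi or another gene, was not tested.

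Msx1 and Msx2 lay near or below background in every population. The Msx1 probe sets ran from 307 to 372 and from 251 to 321, above the array's highest control on 9 and 3 of 16 arrays. Msx2 ran from 208 to 299 and from 112 to 123, above it on 1 and 0 arrays. None of these 4 probe sets passed in any of the 6 comparisons with limma, and their differences lay between -0.07 and 0.14 (lowest adjusted p = 0.126).

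ZsGreen-dim cells, between the ZsGreen-high and ZsGreen-negative gates, gave few calls. Against Sca1+ ZsGreen-negative cells 0 of 15 probe sets passed by limma, where 0.933% of all probe sets did. At an unadjusted p under 0.05 there were 3 of 15, where 19.7% of all probe sets lay below it, a share near that of the members. With the mouse as a block 2 passed (Id1 and Smad7, both lower), where 10.5% of all did, and 0 passed in that fit without mouse 2 (2.59% of all). ZsGreen-high against ZsGreen-dim gave 0 of 15 by limma (0.757% of all), 3 at an unadjusted p under 0.05 (14.5% of all) and 1 with the block (Id1; 4.91% of all). The 2 ZsGreen-negative populations gave 0 of 15 by limma (2.31% of all), 2 at an unadjusted p under 0.05 (11.7% of all) and 0 with the block (3.46% of all). ZsGreen-dim against Sca1- cells gave 2 of 15, Id3 higher and Id1 lower by 0.64 ± 0.17 (limma adjusted p = 0.0251), where 11.6% of all passed. With the block this became 4, adding Smad6 and the dimmest Id4 probe set, where 18.3% of all passed. Without mouse 2 the blocked count was 3, the Id4 probe set no longer passing (adjusted p = 0.221), where 10.8% of all passed. The unblocked count ranged from 0 to 6 over the leave-one-out fits. It was 0 without mouse 2 (3.25% of all) or mouse 4 (3.84% of all) and 6 when the Sca1- array of mouse 1 was dropped (19.7% of all), so the share over all probe sets moved with it. The Id1 call of this comparison held in 13 of 20 such fits and the Id3 call in 17. The Id1 call was lost on the hybridization-control scale, where 0 members passed as lower in this comparison. On the hybridization-control scale the share of calls that were higher, over all probe sets, was 92.3% in place of 65.2% for ZsGreen-dim against Sca1+ ZsGreen-negative cells, 95.8% in place of 39.3% for ZsGreen-high against ZsGreen-dim and 81.8% in place of 57.6% for ZsGreen-dim against Sca1- cells. A single test over the 4 populations passed for 7 of 15 probe sets, from Id1, Id3, Id4, Smad6, Smad7 and Bambi, where 27.8% of all passed. Whether a difference seen for ZsGreen-high cells is larger than the same one for ZsGreen-dim cells is given by the comparison of those 2 populations, in which no member passed without the block.

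**Figure D3:**
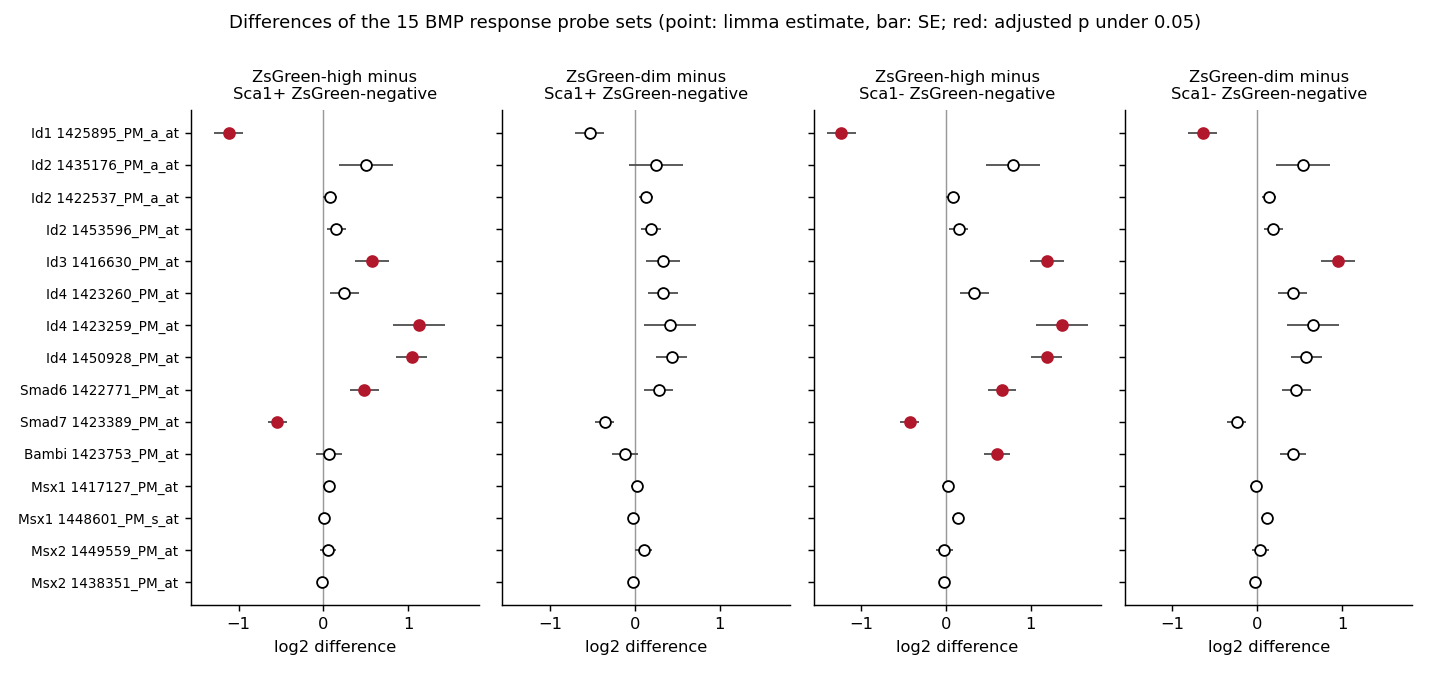
Log2 difference (points, limma estimates; bars, SE) of the 15 probe sets in 4 comparisons, with red points where the adjusted p was under 0.05. Red points number 6, 0, 7 and 2 from left to right, and Id1 and Smad7 lie left of 0 in all 4.

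Id1 and Smad7 were lowest in the population with the lowest epithelial mean. ZsGreen-high arrays, with the lowest epithelial mean of the 4 populations (11.56), had Id1 of 919 to 1384 and Smad7 of 4691 to 5472. Sca1+ ZsGreen-negative arrays, with the highest (13.93), had Id1 of 2018 to 2786 and Smad7 of 6615 to 8246. Id3 was highest in ZsGreen-high cells. Other lists were lowest in ZsGreen-high cells too. In the order ZsGreen-high, ZsGreen-dim, Sca1+ ZsGreen-negative and Sca1- cells, the mean log2 signal of 15 proliferation genes was 9.75, 10.18, 10.74 and 10.65, and 10 of these were lower in ZsGreen-high than in Sca1+ ZsGreen-negative cells. That of 15 leukocyte genes was 9.24, 9.55, 9.64 and 9.73, with Cd3e, Cd3g and Itgam at background in all 4 populations. That of 8 mesothelial genes was 8.55 in ZsGreen-high and 9.15 in Sca1+ ZsGreen-negative cells, with Msln, Muc16 and Bnc1 at background in all 4 populations, and 4 were lower in that comparison. Of the 6 genes of cells of Cajal 3 were lower in it. The part of these genes' cells in the Id1 and Smad7 differences was not tested. Over 16 arrays, which form 4 clusters by population and share mice, Pearson r of log2 signal was 0.81 between Id1 and Smad7, -0.76 between Id1 and Id3, and 0.85 between Id2 and Id3, as descriptions only.

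**Figure D4:**
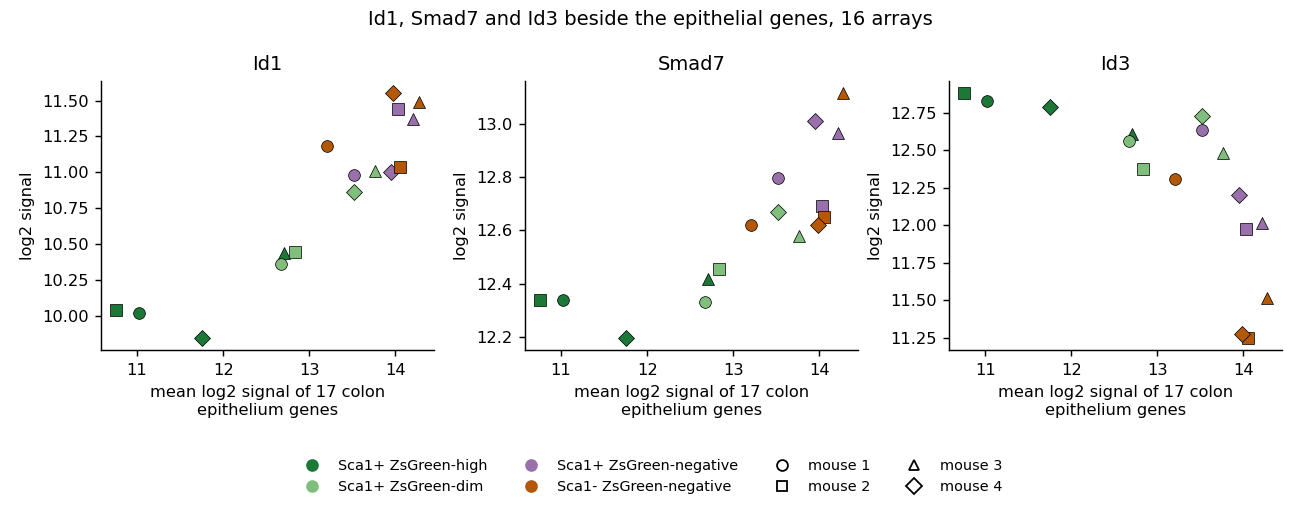
Log2 signal of Id1, Smad7 and Id3 against the epithelial mean (mean log2 signal, 17 genes) on 16 arrays, coloured by population with 1 symbol per mouse. Arrays with lower epithelial means tend to have lower Id1 and Smad7 and higher Id3. On the horizontal axis ZsGreen-high (10.76 to 12.71) is apart from Sca1+ (13.52 to 14.21) and Sca1- ZsGreen-negative arrays (13.20 to 14.28), which overlap. ZsGreen-dim (12.67 to 13.76) overlaps with each of the others.

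The genes whose log2 signal ran most like each member over the 16 arrays were drawn from 9994 named genes of above-median signal. Chd7 (r = 0.97) and Gne (0.97) were nearest to Id1, and Sbds (0.94) and Sowahb (0.93) to Smad7. Srpx2 (0.98) and Cxcl12 (0.98) were nearest to Id3, and Pde4b (0.93) and Arrdc3 (0.93) to Id2. Srpx2 averaged 7549 in ZsGreen-high, 6031 in ZsGreen-dim, 3723 in Sca1+ ZsGreen-negative and 1655 in Sca1- cells. That this is the order of Id3 follows from how the gene was picked. For Id4 they were Cped1 (0.87) and Tgtp1 (0.83), for Smad6 Psmf1 (0.92) and Xaf1 (0.89), and for Bambi Hsp90aa1 (0.88) and Pde12 (0.86). Those nearest to Msx1 (Nxt1, 0.81, and Gps2, 0.79) and Msx2 (Ssxb1, 0.76, and Svs3a, 0.76) were matched to signals near background.

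Upstream of the response genes, several BMP ligands were higher in ZsGreen-high cells. Of 11 ligands measured, 4 rose and 1 (Bmp8a) fell against Sca1+ ZsGreen-negative cells (list median 0.05, against 0.01 over all probe sets), where 26.2% of all probe sets passed. Bmp6 rose by 2.10 ± 0.20, from a mean of 3041 to 12591 (limma adjusted p = 8.65e-05), and Bmp4 by 1.35 ± 0.30, from 10914 to 25753. Bmp7 rose by 1.13 ± 0.27. In ZsGreen-dim cells Bmp6 was also higher, by 1.70 ± 0.20 (mean 9602, limma adjusted p = 0.00192), and Gdf10, a BMP3-related ligand, fell by 1.12 ± 0.24 (limma adjusted p = 0.0459), where 0.933% of all probe sets passed. Against Sca1- cells 5 ligands rose and 3 fell in ZsGreen-high cells, and 4 rose and 1 fell in ZsGreen-dim cells, where 31.2% and 11.6% of all probe sets passed.

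Secreted antagonists were mixed. Of 15 measured, 6 rose and 3 fell (Bmper, Fst and Sost) in ZsGreen-high against Sca1+ ZsGreen-negative cells, where 26.2% of all probe sets passed (list median 0.38). Grem1 (Gremlin 1, which binds BMP2 and BMP4) rose by 1.65 ± 0.34, from 2925 to 8806 (limma adjusted p = 0.00283). Fstl3, a follistatin-like binder of activins, rose by 1.28 ± 0.22. Bmper, a BMP-binding modulator, fell from a mean of 1149 to 237 (limma adjusted p = 0.000762), and its signal in ZsGreen-high cells was above background on 1 of 4 arrays only (180 to 334), so the size of the fall is not well measured. Bmper also fell in ZsGreen-dim cells, where it was at background (mean 184.5, limma adjusted p = 0.00632 on the signals as they stand). Set against the control signal, Sca1+ ZsGreen-negative cells were at least 3.20-fold higher, a bound that was not tested. Fst fell in ZsGreen-dim cells too, by 0.61, and Bmper and Fst were the only 2 antagonists to pass there. Between the ZsGreen-negative populations Sostdc1 was lower in Sca1+ cells (-0.91 ± 0.16). Bmper was higher there, with a mean of 1149 against 378 in Sca1- cells, where it was above background on 1 of 4 arrays only (207 to 724), and the other 13 did not pass.

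BMP receptors and co-receptors that passed were all higher in ZsGreen-high cells, 6 of 11 against Sca1+ ZsGreen-negative cells (list median 0.33) and 3 of 11 against Sca1- cells, where 26.2% and 31.2% of all probe sets passed. Acvr1, a type I receptor, rose by 0.86 ± 0.16 (limma adjusted p = 0.00141), Acvrl1 by 0.74 ± 0.19 and the type II receptor Bmpr2 by 0.66 ± 0.16. Bmpr1a and Hjv were at background in all 4 populations on their brightest probe sets. Bmpr1b, among the 6 that passed, was at background on all Sca1+ ZsGreen-negative arrays (mean 270, against 354.8 in ZsGreen-high cells). Of 11 intracellular transducers and modulators, 4 rose and 1 fell. Ski, a corepressor of SMAD-driven transcription, rose by 0.84 ± 0.14 and Smad5 by 0.72 ± 0.15, while Tob1, an inhibitor of BMP SMADs, fell by 1.45 ± 0.26 (limma adjusted p = 0.00118). Smad1 and Smad4 did not pass in that comparison. In ZsGreen-dim against Sca1+ ZsGreen-negative cells 0 receptors and 0 transducers passed, against 3 receptors higher, and 2 transducers higher and 1 lower, with the mouse as a block, which raised the share over all probe sets from 0.933% to 10.5%. These blocked counts include mouse 2, whose pairing Xist goes against, and no count without it is given for these lists.

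Of 3 E proteins, the partners that Id proteins bind, 2 rose, where 26.2% of all probe sets passed. Tcf4 rose by 0.95 ± 0.26 in ZsGreen-high against Sca1+ ZsGreen-negative cells (limma adjusted p = 0.0133) and Tcf12 by 0.38 ± 0.11, while Tcf3 differed by 0.17 ± 0.08 without passing. Against Sca1- cells all 3 passed and were higher (31.2% of all probe sets passed), but with quantile normalization Tcf4 alone passed there, with Tcf12 at adjusted p = 0.0516 and Tcf3 at adjusted p = 0.101. Of 7 TGF-beta response genes measured, 2 rose and 1 fell. Ccn2 rose by 1.89 ± 0.36 (limma adjusted p = 0.00164) and Tgfbi by 1.22 ± 0.28, and Cdkn2b fell, from a mean of 2751 to 993 (limma adjusted p = 0.00045). ZsGreen-high and ZsGreen-dim cells did not differ past the threshold in any gene of these 6 lists. Of the 30 genes of these lists that passed in ZsGreen-high against Sca1+ ZsGreen-negative cells, 3 no longer passed on the hybridization-control scale: Bmp8a (adjusted p = 0.86), Fst (adjusted p = 0.505) and Sost (adjusted p = 0.314), which also changed sign. That left no ligand lower, and Bmper as the only antagonist lower. Of the 29 against Sca1- cells 3 no longer passed there, namely Nog, Bmp8a and Bmp8b, of which Bmp8a and Bmp8b changed sign. In ZsGreen-dim against Sca1+ ZsGreen-negative cells Fst was lost (adjusted p = 0.131). With the epithelial covariate 0 of the 30 passed.

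**Figure D5:**
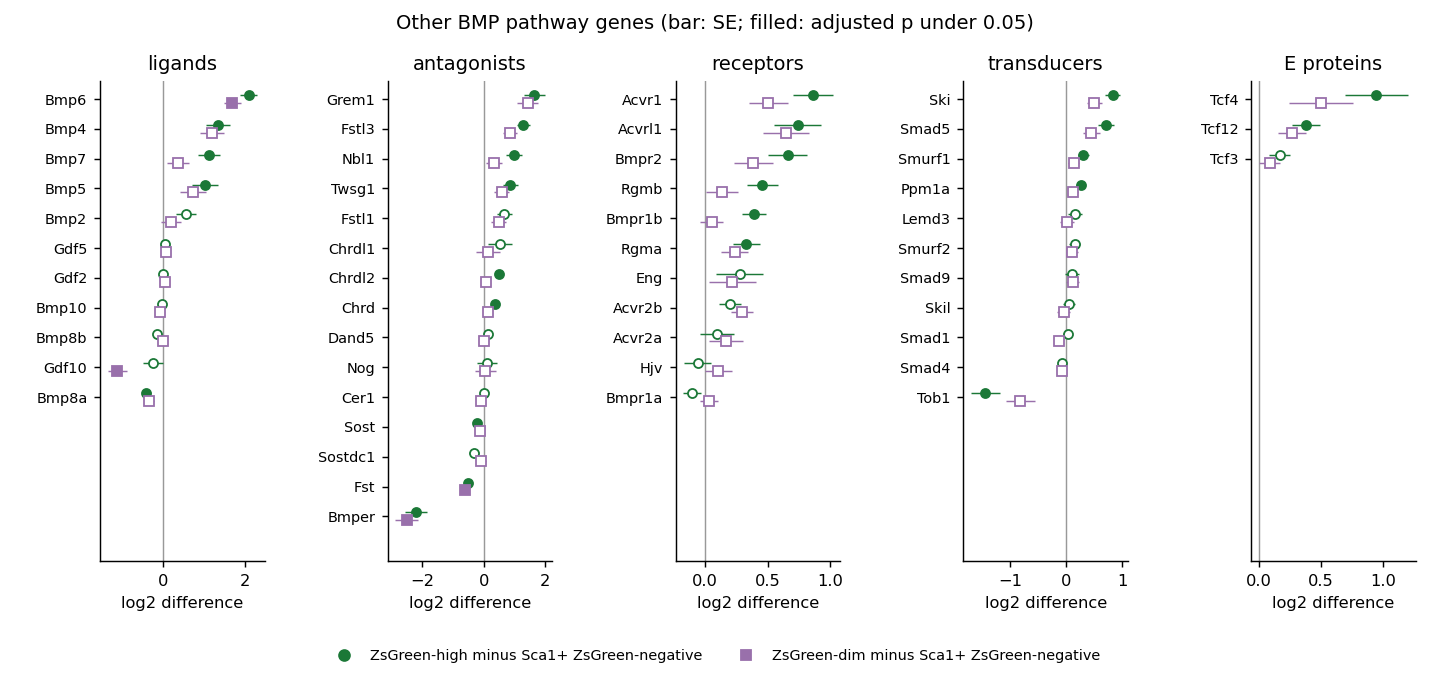
Log2 differences (bars, SE) of BMP ligands, antagonists, receptors, transducers and E proteins in ZsGreen-high (circles) and ZsGreen-dim (squares) against Sca1+ ZsGreen-negative cells, with filled symbols where the adjusted p was under 0.05. Bmp6, Bmper and Fst are filled for both populations, with Bmp6 at 2.10 and 1.70.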

How the data were processed

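Total RNA of 16 sorted samples was amplified from 2 ng and hybridized to 1 Affymetrix array each, per the labels' protocols. Affymetrix Expression Console 1.1 was used on the arrays, per the submitters' processing notes; how signals were summarized and normalized is not given in the sources used here. Each deposited value is a score, since every one of the 45141 probe sets has mean 0 and SD 1 over its 16 arrays. The design had assumed a log2 scale. Whole-number signals whose logs give these scores were recovered for all 45141 probe sets (58 to 155937; recomputed scores within 1e-09; 1000 of 1000 simulated probe sets recovered). The authors' scale between arrays was kept, with array medians of 661 to 686. The platform's table named 1 gene for 28898 probe sets, several for 551 and none for 15588, and 104 were controls.

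Log2 signals of 45037 probe sets were fitted with limma 3.58.1 (R 4.3.3), 1 mean per population over all 16 arrays, two-sided, with Benjamini-Hochberg adjustment. Tested on simulated data for ZsGreen-high against Sca1+ ZsGreen-negative cells (45037 probe sets), it recovered 91 of 100 changes of 1 log2 unit and 100 of 100 of 2, with 7 false calls. The simulated arrays were independent, with the same spread in each population and 200 changed probe sets. The data differ in these points, so the figures check the fit in a simpler setting only. By the labels each mouse gave all 4 populations. Deviations from population means correlated at 0.241 on average within a mouse (from -0.0594 to 0.466 per mouse) and at -0.0807 between mice. The mouse as a block was therefore an alternative, whose values stand beside results it changed. For member calls that it changed, that fit is also given without mouse 2. The number of arrays, 4 a population, limits the precision.

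All 9 genes are named with all probe sets, the one with the highest mean standing for the gene. Of the 6 other pathway lists, counts are given, with at most 3 genes of the greatest change among those that passed. Members and lists were chosen with earlier results of these data known. Smad7, Bambi, Id1, Msx1 and Msx2 are shown without sequence.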

Additional observations from a re-analysis of the deposited data

Results flagged for a closer look

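In 6 of 60 groups of 4 arrays (15 probe sets in 4 populations), 1 array stood apart from the other 3 by Dixon's test, which chance gives in about 1 group of 20. Of these, 4 were in Sca1- ZsGreen-negative cells. Id2 (1435176_PM_a_at) was 2946 in mouse 1, against 1256 to 1329 in the other mice. Id4 (1423259_PM_at) was 945 in the same array, against 349 to 399. Smad7 was 8863 in mouse 3, against 6286 to 6424. Bambi was 541 in mouse 2, against 740 to 783. The others were in Sca1+ ZsGreen-negative cells and at or near background: Msx1 (1448601_PM_s_at) was 261 in mouse 3, against 298 to 306, and Msx2 (1438351_PM_at) was 119 in mouse 2, against 114 in the other 3. The Sca1- array of mouse 1 also had the highest Id3 of its population, 5077, the lowest Epcam, 10080, and the highest Pecam1, 7099.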

How the results depend on the processing

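Counts are of the 15 member probe sets that passed. For ZsGreen-high against Sca1+ ZsGreen-negative cells (6), array medians set equal, quantile normalization, the mouse or the Xist group as a block, the variance trend, a filter on dim probe sets, the 2 populations alone and the 10 Xist-high arrays kept the count within 1.5 times. Scaling to hybridization controls gave 14 there (59.5% of all probe sets), 3 for ZsGreen-high against ZsGreen-dim (0; 20.5% of all), 13 for ZsGreen-high against Sca1- cells (7; 59.9% of all) and 11 for the test over 4 populations (7; 44.8% of all), so calls rose over the whole array. The epithelial covariate gave 0 in each of these 4 and 1 for ZsGreen-dim against Sca1- cells (2), and turned Id3 (log2 difference) to -0.066 against Sca1+ ZsGreen-negative cells and Id2 (1435176_PM_a_at) to -0.40 against Sca1- cells. The replicate block by mouse gave 2 for ZsGreen-dim against Sca1+ ZsGreen-negative cells (0; 10.5% of all), 1 for ZsGreen-high against ZsGreen-dim (4.91% of all) and 4 for ZsGreen-dim against Sca1- cells (18.3% of all), and moved no other count by over 1.5 times. The last became 0 on the deposited scores and 1 in the 2 populations alone, a fit with fewer arrays and no test over 4 populations. The 3 alternatives chosen after seeing the data split arrays by Xist or left mouse 2 out of the replicate block, which then gave 1 for ZsGreen-high against ZsGreen-dim (3.55% of all). As a block, Xist group gave 2 for ZsGreen-high against ZsGreen-dim (6.55% of all, against 0.757%) and 1 for the 2 ZsGreen-negative populations (0; 4.10% of all, against 2.31%). The 10 Xist-high arrays, 2 or 3 a population, gave 2 for ZsGreen-dim against Sca1+ ZsGreen-negative cells (2.94% of all, against 0.933%). They gave 1 for the ZsGreen-negative pair (3.15% of all, against 2.31%). Leaving out a mouse or an array gave 3 to 6 (3 without mouse 2, keeping Id1, Smad7 and 1 Id4 probe set, with 11.7% of all), 0 to 1 (ZsGreen-dim against Sca1+ ZsGreen-negative), 0 to 0 (ZsGreen-high against ZsGreen-dim), 0 to 1 (ZsGreen-negative pair), 6 to 9 (ZsGreen-high against Sca1-), 0 to 6 (ZsGreen-dim against Sca1-) and 2 to 9 (test over 4 populations, 3 without mouse 2 and 2 without mouse 4). Shares over all probe sets are not listed here for the deposited scores, the 2 populations alone or the other leave-one-out counts. Those counts are therefore not results about the members. With the epithelial covariate 0.00222% of all passed for ZsGreen-high against Sca1+ ZsGreen-negative cells. With 1 probe set per gene, Id4 had no call in any comparison, since its brightest probe set stands for it. The rises of Id3 and Smad6 over Sca1+ ZsGreen-negative cells also missed the threshold under other settings: Id3 with quantile normalization (adjusted p = 0.0575), Smad6 with array medians set equal (adjusted p = 0.0502) and in the 2 populations alone (adjusted p = 0.0689). For other changes the cause was not tested. Signal over background limits Msx1, Msx2 and the dimmest Id4 probe set.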
